A study of Mus musculus with 19 samples.

Results

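The genes described here are transcribed in dividing cells: 30 act in mitosis and 18 in S phase, the phase in which DNA is copied. They were chosen by symbol from a list of 49 genes, and each is represented by the probe set that carries its symbol and no other, taking the set with the highest mean where there were several (Rrm2 alone had 2). Such a probe set was found for 48 of the 49, out of 22180 genes with a single-symbol probe set on the array. Ccnb1, which encodes the mitotic cyclin B1, had none and is not described. All 48 passed the intensity filter (a log2 value of at least 4.38, the table's median, on 4 or more arrays) and reached it on all 19 arrays, among 14231 genes tested.

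RNA came from 19 flash frozen mammary tumours of mice, collected at end burden, and each tumour was hybridised to 1 whole-transcript Affymetrix array. All 19 tumours carry the NIC transgene, in which the MMTV promoter, active in mammary epithelium, drives an activated ErbB2 and Cre recombinase from 1 transcript. The 6 tumours labelled double knockout are NIC itgb1 fl/fl itgb3 fl/fl, the 4 Itgb1 knockouts NIC itgb1 fl/fl, the 4 Itgb3 knockouts NIC itgb3 fl/fl and the 5 controls NIC WT. Cre is meant to act in the epithelium and leave both integrin genes in fibroblasts, vessels and immune cells. Bulk arrays cannot check this. The labels identify tumours and not animals, so p-values reflect how far single tumours differ, of which some may be technical. The labels state neither age nor batch.

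Cells that enter the cycle first raise genes for DNA replication, which E2F transcription factors switch on at the passage from G1 to S phase, and later raise genes for chromosome segregation, which the MuvB complex with B-Myb and FoxM1 switches on in G2. In resting cells the DREAM complex holds both sets down. ErbB2 signals through the Ras and PI3K pathways towards cyclin D and so towards E2F release, and integrins, which anchor epithelial cells to the matrix, are known to support the same G1 step through focal adhesion kinase and Src. Transcripts such as Mki67 and Top2a are widely read as a measure of how many cells of a tissue are cycling.

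Some promoters of both sets carry the letters of the elements that these factors read, with shares that differ by element and set. The window from 250 bases before to 50 bases after the transcript start was taken from RefSeq (build GRCm38.p6), which held it for 40 of the 48 genes, 25 of mitosis and 15 of S phase. On either strand, the CHR letters TTTGAA, read by MuvB, occurred in 80.0% of the mitosis promoters and 20.0% of the S phase promoters, against 14.2% of the 11097 promoters of genes tested and 20.2% of all 27025 in the table. The CCAAT box, read by NF-Y, occurred in 84.0% of the mitosis and 66.7% of the S phase promoters, against 41.5% of the genes tested. An E2F site, written TTTCCCGC, TTTCGCGC, TTTGGCGC or TTTGCCGC, occurred in 4.0% of the mitosis and 40.0% of the S phase promoters, against 4.31% of the genes tested. A CHR and a CCAAT box stood together in 76.0% of the mitosis promoters, 20.0% of the S phase promoters and 6.76% of the genes tested. A match is a description of letters and not a bound site. The last 150 bases before the start are shown for 4 mitosis and 3 S phase genes, those that followed the other members most closely among genes with a CHR or an E2F match in that stretch. Capitals mark CHR, CCAAT and E2F letters on either strand. The positions are chr19:37376232-37376381, plus strand for Kif11, chr10:69352913-69353062, minus strand for Cdk1, chr7:135716380-135716529, minus strand for Mki67, chr11:99024190-99024339, minus strand for Top2a, chr11:98908001-98908150, plus strand for Cdc6, chr8:75109359-75109508, plus strand for Mcm5 and chr1:128359706-128359855, minus strand for Mcm6.
Kif11: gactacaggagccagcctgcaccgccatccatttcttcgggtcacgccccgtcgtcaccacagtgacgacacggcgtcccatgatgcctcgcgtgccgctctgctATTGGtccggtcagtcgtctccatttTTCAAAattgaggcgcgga
Cdk1: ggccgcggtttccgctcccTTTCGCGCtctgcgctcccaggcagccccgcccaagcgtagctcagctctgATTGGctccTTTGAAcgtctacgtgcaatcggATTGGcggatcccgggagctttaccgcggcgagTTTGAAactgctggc
Mki67: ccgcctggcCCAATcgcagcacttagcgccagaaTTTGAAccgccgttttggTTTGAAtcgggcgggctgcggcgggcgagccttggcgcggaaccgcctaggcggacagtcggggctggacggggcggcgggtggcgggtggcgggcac
Top2a: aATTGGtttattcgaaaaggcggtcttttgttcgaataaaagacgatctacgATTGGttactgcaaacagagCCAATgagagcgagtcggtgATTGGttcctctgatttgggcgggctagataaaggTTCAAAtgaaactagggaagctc
Cdc6: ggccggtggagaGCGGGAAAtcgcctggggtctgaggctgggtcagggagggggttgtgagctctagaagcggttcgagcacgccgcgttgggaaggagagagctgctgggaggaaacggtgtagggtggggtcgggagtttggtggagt
Mcm5: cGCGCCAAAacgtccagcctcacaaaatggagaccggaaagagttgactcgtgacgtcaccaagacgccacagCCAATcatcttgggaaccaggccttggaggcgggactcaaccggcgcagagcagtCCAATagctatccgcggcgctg
Mcm6: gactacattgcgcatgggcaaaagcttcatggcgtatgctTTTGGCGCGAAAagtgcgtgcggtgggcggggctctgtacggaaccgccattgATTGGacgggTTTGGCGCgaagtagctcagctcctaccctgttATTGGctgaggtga
In Kif11, Cdk1 and Top2a the CHR nearest the transcript start begins at base −19, −15 and −23, counted from the start, with a CCAAT box upstream of it. Cdk1 also has an E2F match at −131. The Mki67 stretch has CHR matches at −116 and −98 and no E2F match. In Mcm6 an E2F match at −110 overlaps another, on the opposite strand, at −106.

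The labels were checked on the targeted genes. Here and below, the 3 values given for the labelled double knockouts are the lowest, the median and the highest of 6, and the other groups are given tumour by tumour. Itgb1, the beta 1 integrin gene, had log2 levels of 7.93, 8.15 and 9.2 among labelled double knockouts, 8.39, 8.52, 8.98 and 8.91 among Itgb1 knockouts, 9.95, 9.81, 10.15 and 10.26 among Itgb3 knockouts and 10.22, 9.84, 10.17, 10.32 and 10.27 among controls. It fell by 1.84 in the labelled double knockouts and fell by 1.46 in the Itgb1 knockouts (limma adjusted p = 0.000156 and 0.0217), and all 10 of those tumours lay below every control. The second call was lost in turn without controls 1, 3, 4 and 5 and without Itgb1 knockouts 1, 2 and 4 (adjusted p between 0.0570 and 0.182), and with array weights (adjusted p = 0.0680). Itgb3, the beta 3 integrin gene, had 7.69, 8.2 and 8.55 among labelled double knockouts, 8.15, 8.98, 7.92 and 7.9 among Itgb1 knockouts, 6.34, 7.31, 6.97 and 7.4 among Itgb3 knockouts and 8.09, 8.23, 7.72, 8.16 and 8.41 among controls. Every Itgb3 knockout lay below every control in Itgb3 (means 7.01 and 8.12). Itgb3 did not pass limma's test in that comparison, where 0 genes passed. The labelled double knockouts overlapped the controls in Itgb3, with a difference of 0.01 (SE 0.229, limma adjusted p = 0.986). The label of the double knockouts is thus not borne out for Itgb3, and every direction below that involves this group carries that limit. Luminal epithelial markers were above the filter for 12 of 12 genes, and of 6 basal and myoepithelial markers with a probe set Acta2, Myh11, Oxtr and Cnn1 were above it and Krt14 and Trp63 below it. Array medians were 4.32 to 4.48 and each array had a median correlation with the others of 0.969 to 0.980. The array medians were 4.32 to 4.34 in the labelled double knockouts and 4.41 to 4.48 in the Itgb3 knockouts, with no overlap. Differences between these groups carry that offset.

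Against the controls, the S phase and mitosis genes kept levels that overlapped in every knockout group, as did most genes tested. Of the 48 genes, 0 passed limma's test in the labelled double knockouts, where 0.386% of all genes did, 0 in Itgb1 knockouts, where 0.00703% did, and 0 in Itgb3 knockouts, where 0% did. At an unadjusted p of 0.05 the counts were 0, 0 and 1 member, against 16.9%, 4.86% and 6.14% of all genes. In each pair of groups 0 of 48 members had groups that did not overlap. Over all genes that share was 1.79%, 1.18% and 2.35% for the labelled double, Itgb1 and Itgb3 knockouts against the controls, 2.69% and 8.95% for the labelled double against the Itgb1 and the Itgb3 knockouts, and 3.87% for the Itgb3 against the Itgb1 knockouts. In these bulk tumours a lower level could come from fewer cycling cells or from less of the transcript per cell, which cannot be told apart.

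The size of what was not found can be bounded. In the labelled double knockouts 20 members lay above the controls and 28 below, with a median log2 difference of −0.06 (all genes 0.03) and a range of −0.41 for Melk to 0.41 for Birc5. In the Itgb1 knockouts 39 lay above and 9 below, with a median of 0.11 (all genes 0.02) and a range of −0.09 to 0.44. The Itgb3 knockouts had 32 above and 16 below, with a median of 0.09 (all genes −0.01) and a range of −0.22 to 0.46. In each of these 3 comparisons the 95% interval of 47 of the 48 genes lay within a log2 difference of 1 either way, which is 2-fold. The exceptions were Melk in the labelled double knockouts (−1.07 to 0.25), Ttk in Itgb1 knockouts, whose interval ended at 1.001, and Melk in Itgb3 knockouts, whose interval ended at 1.06. Of all genes, 55.9%, 55.9% and 47.6% lay above the controls in the labelled double, Itgb1 and Itgb3 knockouts. The members moved together within genotypes, so their counts above and below, here and later, are not counts of independent genes. These 3 comparisons share the 5 controls, so a shift of the controls enters all of them. The median of the labelled double knockouts turned to 0.09 without control 1 and to 0.08 without double knockout 5, and that of the Itgb3 knockouts to −0.03 without Itgb3 knockout 3. That of the Itgb1 knockouts ran from 0.03 (without control 3) to 0.26 (without control 1).

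**Figure D1:**
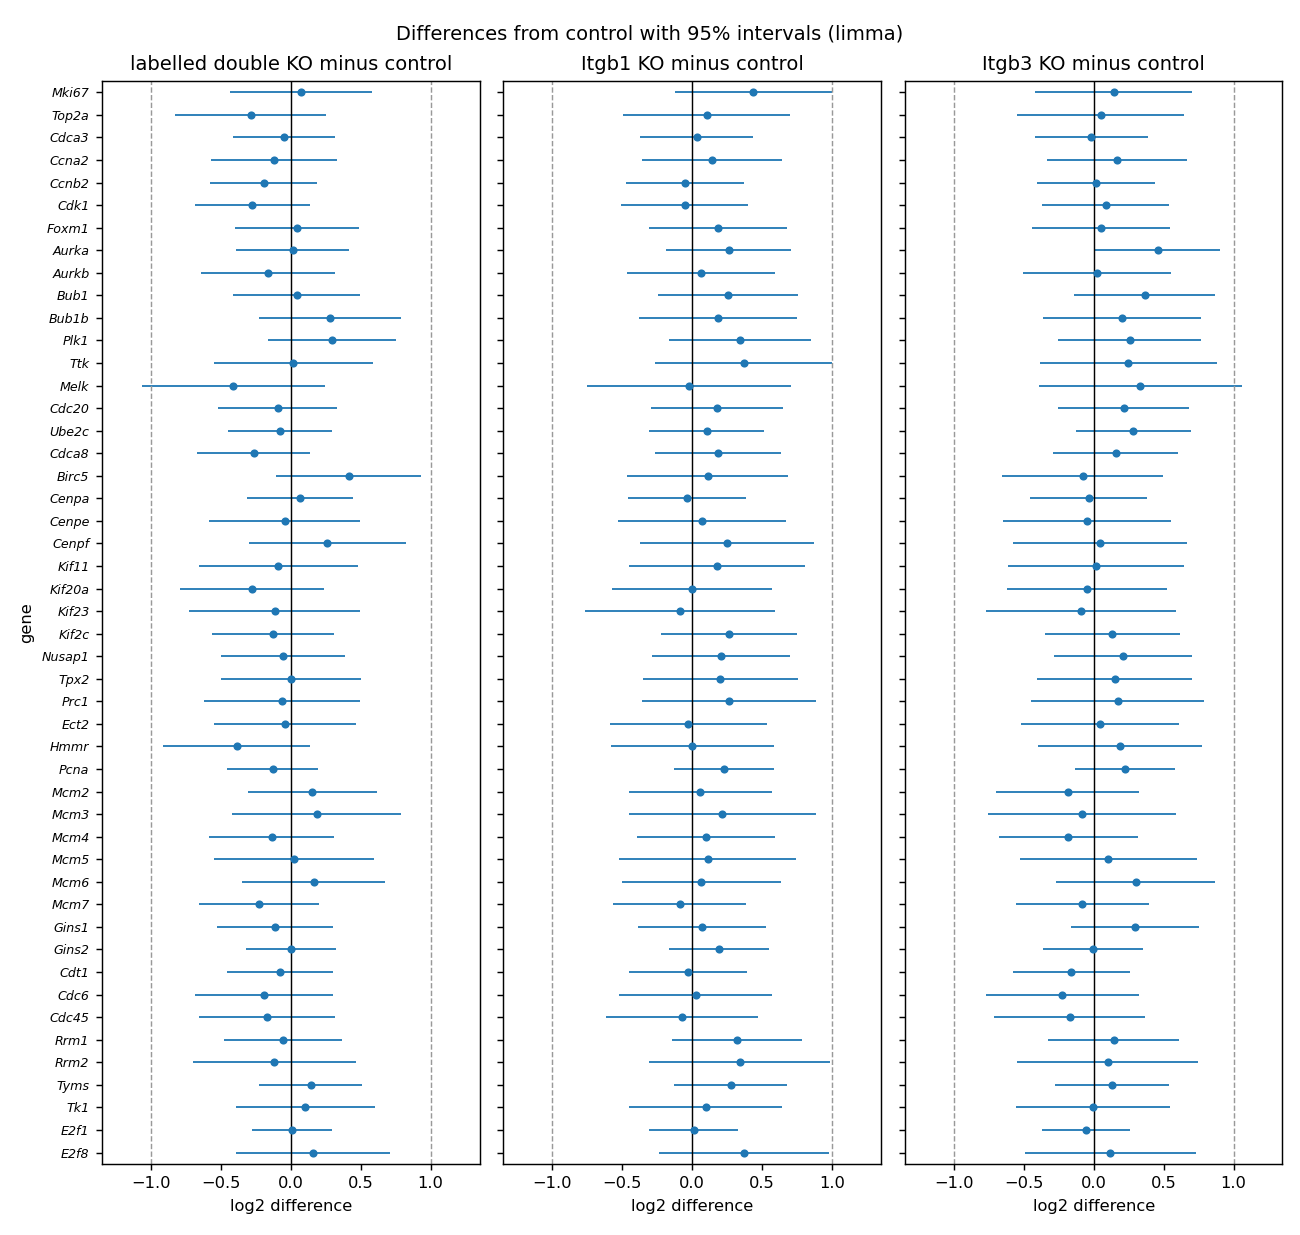
Log2 difference from the 5 controls (x axis) of each of the 48 genes (y axis) in the labelled double knockouts, the Itgb1 knockouts and the Itgb3 knockouts, as points with 95% intervals from limma; dashed lines mark a log2 difference of 1 either way. Every interval crosses 0 except that of Aurka in the Itgb3 knockouts, and points run from −0.41 to 0.46.

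The most used marker of cycling cells, Mki67, encodes a protein that coats mitotic chromosomes. Its log2 levels were 8.71, 9.57 and 10.04 among labelled double knockouts, 9.88, 9.64, 10.16 and 9.76 among Itgb1 knockouts, 9.7, 9.15, 9.81 and 9.6 among Itgb3 knockouts and 10.32, 9.19, 9.1, 8.85 and 9.66 among controls. The highest control exceeded every other tumour and the lowest tumour was a labelled double knockout. The groups overlapped, since the range of the controls, 8.85 to 10.32, held every Itgb1 and Itgb3 knockout and the highest labelled double knockout. Mki67 differed from the controls by 0.08 (SE 0.242) in the labelled double knockouts, by 0.44 (SE 0.268) in Itgb1 knockouts and by 0.14 (SE 0.268) in Itgb3 knockouts, with limma adjusted p of 0.906, 0.982 and 0.961. The Itgb1 difference is the largest of any member in that comparison, with an interval from −0.13 to 0.997. Top2a encodes the topoisomerase that untangles replicated chromosomes. It had 7.33, 8.06 and 8.8 among labelled double knockouts, 8.5, 8.2, 8.73 and 8.46 among Itgb1 knockouts, 8.38, 7.79, 8.77 and 8.73 among Itgb3 knockouts and 9.19, 8.06, 7.73, 8.26 and 8.59 among controls. Control 1 was the highest of all 19 and double knockout 5 the lowest, as for Mki67. Differences from the controls were −0.29, 0.10 and 0.05, and none passed.

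Cyclin A2, cyclin B2 and their kinase Cdk1 drive the cell into mitosis, and Foxm1 switches on the genes of that step. Ccna2 had 8.49, 9.58 and 9.69 among labelled double knockouts, 9.7, 9.33, 9.9 and 9.6 among Itgb1 knockouts, 9.7, 9.23, 9.98 and 9.74 among Itgb3 knockouts and 10.1, 9.25, 9.05, 9.38 and 9.7 among controls. Double knockout 5, at 8.49, stood below the other 5 of its group, which spanned 9.29 to 9.69. Ccnb2 had 8.47, 9.35 and 9.47 among labelled double knockouts, 9.35, 9.29, 9.52 and 9.06 among Itgb1 knockouts, 9.36, 8.96, 9.62 and 9.58 among Itgb3 knockouts and 9.85, 9.16, 9.31, 9.11 and 9.38 among controls. Cdk1 had 7.39, 7.97 and 8.37 among labelled double knockouts, 7.92, 7.88, 8.65 and 8.22 among Itgb1 knockouts, 8.32, 7.77, 8.59 and 8.55 among Itgb3 knockouts and 8.6, 8.06, 7.83, 8.17 and 8.45 among controls. For both genes the 4 groups covered much the same range. Among these 4 genes Cdk1 had the largest difference in the labelled double knockouts, −0.28 (SE 0.195, limma adjusted p = 0.498). Over the same genes the differences ran from −0.28 to 0.04 in the labelled double knockouts, from −0.05 to 0.19 in Itgb1 knockouts and from 0.02 to 0.17 in Itgb3 knockouts.

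The mitotic kinases build the spindle and guard its attachment to chromosomes. Plk1, which acts at centrosomes and kinetochores, had 8.09, 8.98 and 9.3 among labelled double knockouts, 9.07, 8.74, 9.15 and 8.77 among Itgb1 knockouts, 8.86, 8.4, 9.17 and 8.96 among Itgb3 knockouts and 9.24, 8.4, 8.48, 7.96 and 8.88 among controls. Its differences from the controls were 0.29, 0.34 and 0.26 in the labelled double, Itgb1 and Itgb3 knockouts. Aurkb, the kinase of the chromosomal passenger complex, had 7.39, 7.91 and 8.29 among labelled double knockouts, 7.63, 7.84, 8.53 and 8.32 among Itgb1 knockouts, 8.26, 7.34, 8.42 and 8.14 among Itgb3 knockouts and 8.53, 7.7, 7.66, 7.74 and 8.47 among controls, and its differences were −0.16, 0.06 and 0.02. The groups of both genes overlapped throughout. Aurka, which matures centrosomes, was the only member with an unadjusted p under 0.05 against the controls. It had 7.04, 7.78 and 7.98 among labelled double knockouts, 7.81, 7.84, 8.08 and 7.82 among Itgb1 knockouts, 8.38, 7.6, 8.11 and 8.25 among Itgb3 knockouts and 8.2, 7.74, 7.28, 7.24 and 7.68 among controls. Of the Itgb3 knockouts, 2 lay above every control, 1 above 4 of the 5, and Itgb3 knockout 2 lay among them. The difference was 0.46 (SE 0.213, interval 0.01 to 0.90, unadjusted p = 0.0446) and the limma adjusted p was 0.806. Bub1, a spindle checkpoint kinase, had 6.4, 7.06 and 7.38 among labelled double knockouts, 7.11, 7.2, 7.3 and 7.08 among Itgb1 knockouts, 7.66, 6.64, 7.44 and 7.38 among Itgb3 knockouts and 7.53, 6.75, 6.17, 6.95 and 7.18 among controls. Its Itgb3 knockout difference was 0.36 (SE 0.239, limma adjusted p = 0.875). Of the 7 kinases and checkpoint genes, 5 lay above the controls in the labelled double knockouts, 6 in Itgb1 knockouts and 7 in Itgb3 knockouts, with medians of 0.02, 0.26 and 0.26.

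Cdc20 and Ube2c serve the anaphase-promoting complex, which destroys cyclins and lets chromosomes part. Cdc20 had 7.26, 8.22 and 8.32 among labelled double knockouts, 8.24, 8.31, 8.24 and 8.43 among Itgb1 knockouts, 8.09, 8.3, 8.7 and 8.27 among Itgb3 knockouts and 8.52, 8.25, 7.39, 7.98 and 8.49 among controls. Ube2c had 7.95, 8.66 and 8.89 among labelled double knockouts, 8.76, 8.74, 8.86 and 8.7 among Itgb1 knockouts, 9.16, 8.63, 9.02 and 8.97 among Itgb3 knockouts and 9.21, 8.81, 8.14, 8.44 and 8.69 among controls. Spread among Itgb1 knockouts was narrow for both genes (SD 0.09 and 0.07, n = 4), against SDs of 0.47 and 0.40 among the 5 controls. In the Itgb3 knockouts Ube2c differed from the controls by 0.28 (SE 0.196, limma adjusted p = 0.886).

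Birc5 (survivin) and Cdca8 (borealin) belong with Aurkb to the chromosomal passenger complex, and Cenpa, Cenpe and Cenpf mark or bind centromeres. Birc5 had 5.03, 6.31 and 6.85 among labelled double knockouts, 5.91, 5.43, 6.23 and 5.99 among Itgb1 knockouts, 5.73, 5.26, 6.07 and 5.74 among Itgb3 knockouts and 6.13, 5.66, 5.55, 5.52 and 6.02 among controls. Of the labelled double knockouts, 4 lay above every control, 1 lay within the range of the controls and double knockout 5 was the lowest of all 19. The difference was 0.41 (SE 0.248, interval −0.11 to 0.93), the largest of any member in that comparison, with a limma adjusted p of 0.411. With each tumour left out in turn it ran from 0.28 to 0.64, and the limma adjusted p from 0.103 to 0.583. Cdca8, its partner, had 5.62, 6.25 and 6.68 among labelled double knockouts, 6.22, 6.58, 6.8 and 7.0 among Itgb1 knockouts, 6.6, 6.66, 6.75 and 6.5 among Itgb3 knockouts and 6.68, 6.67, 6.04, 6.07 and 6.89 among controls. It lay on the other side of the controls, at −0.26 (SE 0.193, limma adjusted p = 0.511). Cenpa, the centromeric histone, had 6.82, 7.66 and 8.11 among labelled double knockouts, 7.69, 7.23, 7.66 and 7.44 among Itgb1 knockouts, 7.35, 7.31, 7.64 and 7.73 among Itgb3 knockouts and 7.84, 7.31, 7.54, 7.33 and 7.68 among controls, and its differences were 0.07, −0.04 and −0.04. Cenpe, a kinetochore motor, had 6.77, 7.76 and 7.97 among labelled double knockouts, 7.78, 7.62, 8.07 and 7.42 among Itgb1 knockouts, 7.61, 7.12, 7.84 and 7.86 among Itgb3 knockouts and 8.47, 7.39, 6.74, 7.68 and 8.0 among controls. Neither centromere gene separated any group from another.

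Spindle motors, bundlers and cytokinesis genes were the largest mitotic group, with 9 genes. In the labelled double knockouts 8 of the 9 lay below the controls (median −0.09, from −0.39 to 0.00). In the Itgb1 and the Itgb3 knockouts 7 of the 9 lay above them, with medians of 0.18 and 0.13. Ect2, the exchange factor that starts the cleavage furrow, had 8.89, 9.99 and 10.08 among labelled double knockouts, 9.99, 9.47, 10.01 and 9.7 among Itgb1 knockouts, 9.83, 9.17, 10.23 and 10.21 among Itgb3 knockouts and 10.47, 9.66, 9.27, 9.63 and 10.06 among controls. Kif20a, a motor of the central spindle, had 7.66, 8.53 and 8.78 among labelled double knockouts, 8.62, 8.45, 9.11 and 8.44 among Itgb1 knockouts, 8.57, 7.86, 8.98 and 9.02 among Itgb3 knockouts and 9.31, 8.37, 8.22, 8.61 and 8.75 among controls. For both genes the SD inside most genotypes exceeded the distance between the group means. Hmmr, a spindle assembly protein that is also a hyaluronan receptor, had 5.74, 6.96 and 7.23 among labelled double knockouts, 7.14, 6.82, 7.42 and 7.11 among Itgb1 knockouts, 7.25, 6.85, 7.62 and 7.53 among Itgb3 knockouts and 7.78, 7.08, 6.47, 7.11 and 7.17 among controls. It had the lowest difference of the 9 in the labelled double knockouts, −0.39 (SE 0.252, limma adjusted p = 0.455), and with each tumour left out in turn it ran from −0.55 to −0.19.

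Among the 12 replication licensing and fork genes, 5 lay above the controls in the labelled double knockouts, 9 in Itgb1 knockouts and 4 in Itgb3 knockouts, with medians of −0.09, 0.07 and −0.08. Pcna, the clamp that holds polymerases on DNA, had 9.68, 9.98 and 10.32 among labelled double knockouts, 10.14, 10.13, 10.49 and 10.53 among Itgb1 knockouts, 10.48, 10.07, 10.52 and 10.2 among Itgb3 knockouts and 10.52, 9.79, 9.75, 10.12 and 10.29 among controls. Double knockouts 1 and 5, at 9.68, were the lowest tumours of all. The upper end held Itgb1 knockouts 3 and 4, Itgb3 knockouts 1 and 3 and control 1. Double knockout 4, at 10.32, and control 5, at 10.29, lay above the other Itgb1 and Itgb3 knockouts. Differences from the controls were −0.13, 0.23 and 0.22, with limma adjusted p of 0.715, 0.982 and 0.899. Mcm6, a subunit of the replicative helicase, had 8.05, 8.47 and 8.95 among labelled double knockouts, 8.28, 8.29, 8.35 and 8.48 among Itgb1 knockouts, 8.5, 8.19, 9.11 and 8.54 among Itgb3 knockouts and 8.46, 7.23, 8.47, 8.15 and 9.1 among controls. Its control range, 7.23 to 9.10, held all knockout tumours but Itgb3 knockout 3, at 9.11. Mcm4, another subunit, had 7.47, 7.95 and 8.43 among labelled double knockouts, 7.84, 7.85, 8.56 and 8.56 among Itgb1 knockouts, 7.77, 7.66, 8.39 and 7.88 among Itgb3 knockouts and 8.71, 7.87, 7.56, 8.06 and 8.33 among controls. Gins2, which activates that helicase, had 6.73, 6.95 and 7.26 among labelled double knockouts, 6.98, 6.79, 7.34 and 7.53 among Itgb1 knockouts, 6.9, 6.74, 7.23 and 6.97 among Itgb3 knockouts and 7.08, 6.6, 7.17, 6.69 and 7.3 among controls, and differed from the controls by 0.00, 0.19 and −0.01. Over the 6 Mcm genes, no group stood apart from the controls.

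The enzymes that make deoxynucleotides were above the controls in the Itgb1 knockouts for 4 of 4 genes, with a median of 0.30. Rrm1, the large subunit of ribonucleotide reductase, had 8.74, 9.34 and 9.46 among labelled double knockouts, 9.48, 9.3, 9.95 and 9.73 among Itgb1 knockouts, 9.47, 8.99, 9.79 and 9.52 among Itgb3 knockouts and 10.11, 8.97, 9.04, 9.01 and 9.36 among controls. Tk1, thymidine kinase, had 8.04, 8.67 and 9.29 among labelled double knockouts, 8.6, 7.97, 9.02 and 9.15 among Itgb1 knockouts, 8.72, 8.06, 8.9 and 8.66 among Itgb3 knockouts and 8.74, 8.13, 8.59, 8.44 and 9.06 among controls. Tyms, thymidylate synthase, had 6.79, 7.21 and 7.85 among labelled double knockouts, 7.29, 7.0, 7.49 and 7.56 among Itgb1 knockouts, 7.43, 6.97, 7.39 and 6.97 among Itgb3 knockouts and 7.32, 6.78, 7.2, 6.8 and 7.2 among controls. Control 1 was the highest tumour for Rrm1 and not for Tk1 or Tyms. In the Itgb1 knockouts Rrm1 differed from the controls by 0.32 (SE 0.222) and Tyms by 0.27 (SE 0.194), both with a limma adjusted p of 0.982. Of the E2F factors, E2f1, an activator, varied least of all members within genotypes. It had 5.87, 6.29 and 6.44 among labelled double knockouts, 6.24, 5.94, 6.21 and 6.6 among Itgb1 knockouts, 6.37, 6.17, 6.24 and 5.93 among Itgb3 knockouts and 6.31, 5.89, 6.32, 6.16 and 6.49 among controls. E2f8, a repressor that closes S phase, had 6.02, 6.92 and 7.32 among labelled double knockouts, 6.9, 6.64, 7.28 and 7.31 among Itgb1 knockouts, 6.7, 6.47, 7.22 and 6.74 among Itgb3 knockouts and 7.32, 6.25, 6.53, 5.92 and 7.29 among controls. Differences of E2f1 from the controls were 0.01, 0.01 and −0.06, and those of E2f8 were 0.16, 0.37 and 0.12.

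Set against the single knockouts, the labelled double knockouts had lower values for most members, and none passed the test. Of all genes, 51.1% lay above the Itgb1 knockouts and 54.7% above the Itgb3 knockouts. Against the Itgb1 knockouts 0 of 48 passed limma's test, where 0.0211% of all genes did, with 41 below and a median of −0.19 (all genes 0.01). At an unadjusted p of 0.05 there were 2, Cdca8 and Pcna, against 12.3% of all genes. Cdca8 differed by −0.45 (SE 0.206, limma adjusted p = 0.386), Pcna by −0.36 (SE 0.165, limma adjusted p = 0.392) and Kif2c, a motor that frees wrongly attached microtubules, by −0.39 (SE 0.223, limma adjusted p = 0.497). Against the Itgb3 knockouts 0 of 48 passed, where 2.87% of all genes did, with 31 below and a median of −0.12 (all genes 0.03). Here 4 had an unadjusted p under 0.05, against 21.1% of all genes. These were Melk, a kinase high in proliferating progenitors, at −0.75 (SE 0.334), Aurka at −0.44 (SE 0.205), Hmmr at −0.57 (SE 0.268) and Pcna at −0.35 (SE 0.165), with limma adjusted p of 0.209, 0.221, 0.227 and 0.228. Melk had 5.63, 6.68 and 7.73 among labelled double knockouts, 6.76, 7.18, 7.28 and 7.39 among Itgb1 knockouts, 8.12, 7.17, 7.42 and 7.35 among Itgb3 knockouts and 7.24, 7.1, 7.38, 6.48 and 7.7 among controls. Its labelled double knockouts spread over more than 2 log2 units, wider than the other groups, and spanned both the Itgb1 knockouts and all but 1 of the Itgb3 knockouts. With limma's array weights Melk alone passed, at −0.87 (adjusted p = 0.0484). The member median against the Itgb3 knockouts turned to 0.02 without double knockout 5 and to 0.01 without Itgb3 knockout 3. That against the Itgb1 knockouts was −0.07 without double knockout 5 and −0.10 without Itgb1 knockout 3.

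Between the Itgb3 knockouts and the Itgb1 knockouts the members also kept overlapping levels, as did most genes tested. Of 48 members 0 passed limma's test, where 0% of all genes did, and 0 had an unadjusted p under 0.05, against 4.55% of all genes. The median was −0.05 (all genes −0.03), from −0.30 for Mcm3 to 0.36 for Melk, and it turned to 0.07 without Itgb3 knockout 2, to 0.02 without Itgb1 knockout 3 and to 0.01 with quantile normalization. The smallest p values belonged to Mcm4 (−0.28), Gins2 (−0.20) and Mki67 (−0.29), all with a limma adjusted p of 0.996. In 46 of the 48 genes the 95% interval stayed within 2-fold either way, and the other 2, Mcm3 and Melk, ended at −1.004 and 1.13. The interaction asks whether the labelled double knockouts differ from the controls by more or less than the sum of both single knockout differences. It passed for 0 of 48 members and for 0% of all genes. At an unadjusted p of 0.05 it held 2 members, Pcna (−0.58, SE 0.239) and Aurka (−0.70, SE 0.295), against 12.5% of all genes, with limma adjusted p of 0.329 and 0.337. Of the members 38 lay below 0 and 10 above, where 50.8% of all genes lay above. The intervals of 22 members stayed within 2-fold, and the member median was −0.25 (all genes 0.01). This median was −0.39 without control 1, −0.44 without Itgb3 knockout 2, −0.15 without double knockout 5, −0.17 without Itgb1 knockout 3 and −0.14 without Itgb3 knockout 3.

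What varied was the tumour. The spread between the 4 group means made up a median of 9.16% of a member's variance over the 19 tumours. It ran from 0.676% for Ect2 to 30.5% for Pcna. The median was 20.4% over all genes and 20.8% over the 8377 genes in the same range of mean levels. These shares are not adjusted for the 4 group means fitted. They lie above 0 also where genotype has no effect, so they do not measure such an effect. Within genotypes the members spread more than other genes, with a median SD of 0.398 (0.225 for E2f1 to 0.567 for Melk), against 0.242 over all genes. The mean deviation of the 48 members from their own 19-tumour means was −0.07 ± 0.37 in the labelled double knockouts (SD, n = 6), 0.10 ± 0.23 in Itgb1 knockouts (n = 4), 0.05 ± 0.29 in Itgb3 knockouts (n = 4) and −0.03 ± 0.39 in controls (n = 5). These group means lie closer together than the tumours of any 1 group.

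**Figure D2:**
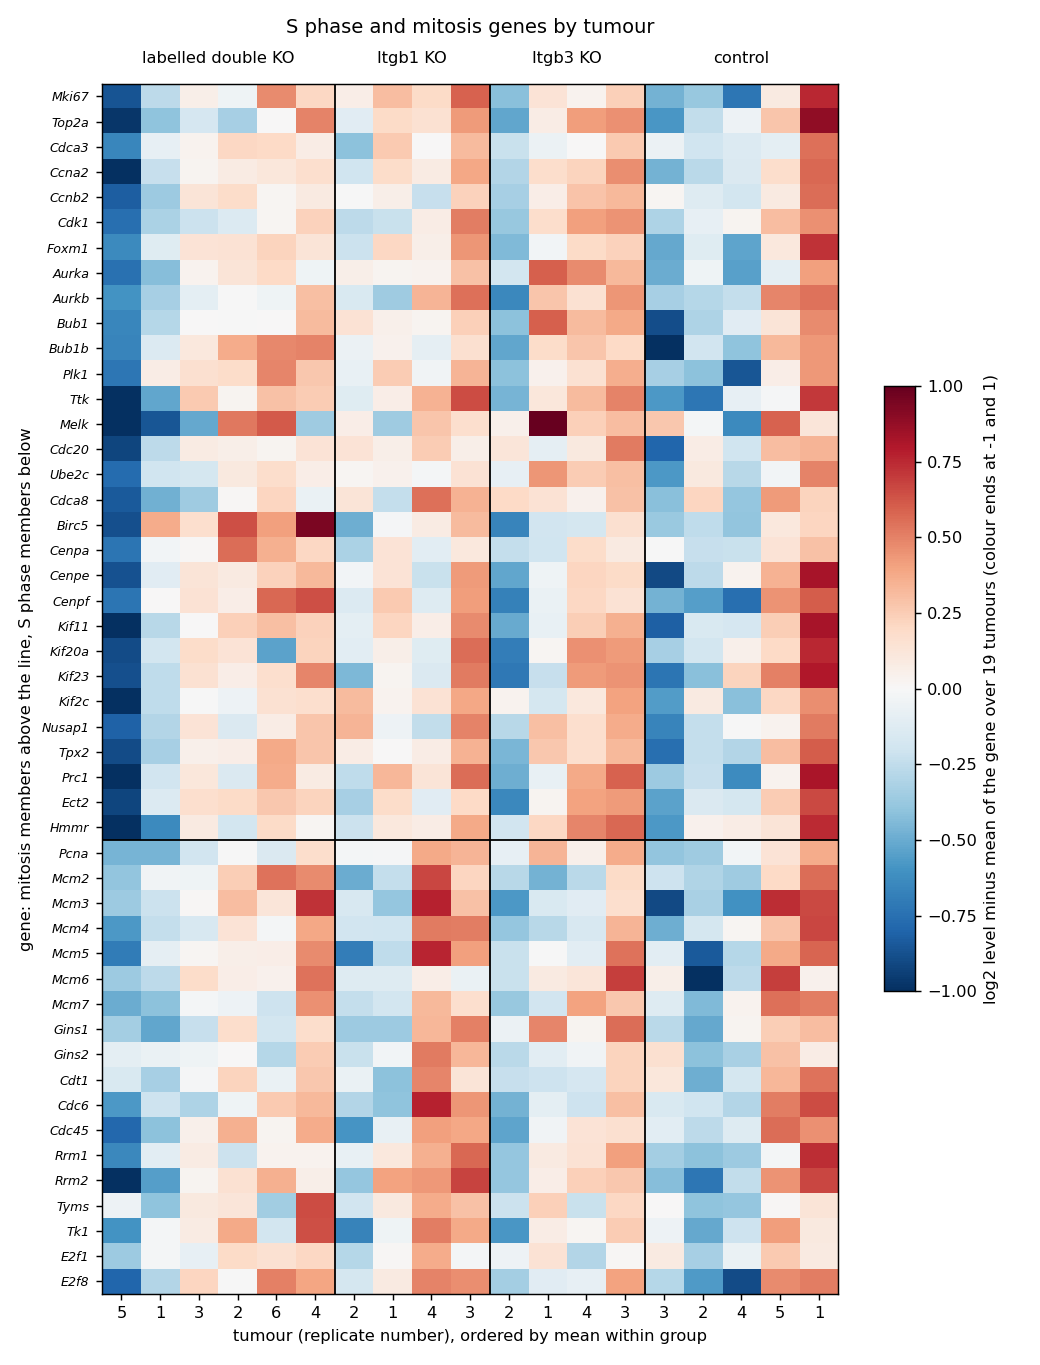
Log2 level of each of the 48 genes (rows) in each of the 19 tumours (columns, by genotype and ordered by their mean) minus the gene's mean over all tumours, with red above and blue below and the colour ending at −1 and 1. Double knockout 5 is below the mean for all 48 genes, and control 1 and Itgb3 knockout 3 are above it for all 48. The other columns hold both colours, as in Itgb3 knockout 1, where 27 genes are above the mean.

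Double knockout 5 was the lowest tumour, at −0.73, and lay below the mean in 48 of 48 genes and below all other tumours in 31. Control 1 was the highest, at 0.51, above the mean in 48 genes and above all other tumours in 22. Itgb3 knockout 3 was also above the mean in all 48, at 0.34. The lowest after double knockout 5 were control 3 (−0.38), Itgb3 knockout 2 (−0.35) and control 2 (−0.30), so low and high tumours occurred in the controls as in the knockouts. Double knockout 5 also had the highest Itgb1 level of its group, 9.20, which is above all 4 Itgb1 knockouts and below every control. Without it the labelled double knockouts still had 0 members past the test in any comparison.

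The mitosis and the S phase genes mostly moved together and parted in a few tumours. In double knockout 5 the mitosis genes lay at −0.88 and the S phase genes at −0.49, a gap of −0.38. Itgb1 knockout 4 had the widest gap, −0.42, with S phase genes at 0.47, the highest of all tumours, and mitosis genes at 0.05. Control 3 had a gap of −0.30, with S phase genes at −0.19 and mitosis genes at −0.49. Control 2 had the opposite pattern, with S phase genes at −0.47 and mitosis genes at −0.19, a gap of 0.28. Itgb3 knockout 4 had a gap of 0.27. By group the gap averaged −0.05 ± 0.19 in the labelled double knockouts, 0.00 ± 0.29 in Itgb1 knockouts, 0.10 ± 0.14 in Itgb3 knockouts and −0.01 ± 0.23 in controls (SD, n = 6, 4, 4 and 5).

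**Figure D3:**
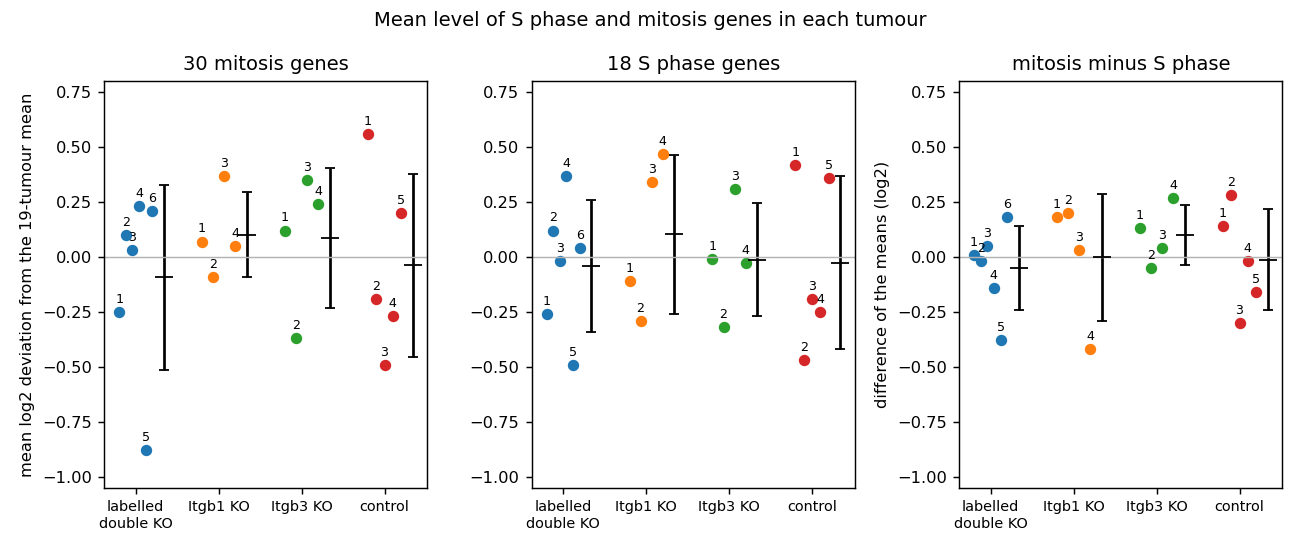
Mean log2 deviation of the 30 mitosis genes and of the 18 S phase genes in each tumour, and the first minus the second (y axes), by genotype, with replicate numbers on the points and the group mean ± SD as a black bar. All groups straddle 0, with double knockout 5 at −0.88 and control 1 at 0.56 as the ends of the mitosis panel.

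Over the 19 tumours, after subtracting each genotype's mean, all 1128 pairs of members had an r above 0, and 1120 of them did without both tumours that lay farthest from the rest (lowest r −0.20). The pairs had a median Pearson r of 0.73, from 0.08 for Ube2c with Gins2 to 0.97 for Ccna2 with Kif11, a motor that pushes spindle poles apart, and 85.0% exceeded 0.5. The median over all pairs of genes tested was 0.01. Pairs within mitosis had a median of 0.81, pairs within S phase 0.75 and pairs across 0.64. These r describe 19 points that share arrays, normalization and tissue mix, and carry no p. Leaving out double knockout 5, the farthest tumour, gave 0.74, 0.74 and 0.58, and leaving out Itgb3 knockout 2 as well gave 0.71, 0.72 and 0.55, a choice made after the data were seen.

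Ccna2 followed the mean of the other 47 members most closely (r = 0.96, rho = 0.95), followed by the checkpoint kinase Ttk, the spindle activator Tpx2 and Kif11, each with r = 0.94. Of the S phase genes Rrm2, the limiting subunit of ribonucleotide reductase, came first (r = 0.93) and Cdc45, part of the helicase, next (r = 0.91). Mki67 and Top2a both had r = 0.92. At the other end were Tyms and Gins2 (r = 0.54), Melk (r = 0.57), E2f1 (r = 0.59) and Mcm6 (r = 0.63). The genes also differed in how far they swung. For each log2 unit of the other members' mean, Kif23, a central spindle motor, moved 1.43 units, Rrm2 1.39 and Ttk 1.37, while Pcna moved 0.67, Gins2 0.41 and E2f1 0.39. Of the printed promoters, those of Kif11, Cdk1, Mki67 and Top2a belong to genes with r of 0.92 to 0.94, and those of Cdc6, Mcm5 and Mcm6 to genes with 0.84, 0.82 and 0.63.

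Genes outside the list that followed it most closely were other genes of replication and mitosis. The 10 with the highest r to the members' mean, over 19 tumours within genotypes, were Ncapg2 and Kif15 (0.96), Cenpn (0.95), Exo1, Pole and Ndc80 (0.94), Cep55, Zwilch and Blm (0.93) and Pclaf (0.92). Ncapg2 belongs to condensin, Cenpn, Ndc80 and Zwilch to the kinetochore, Kif15 to the spindle and Cep55 to abscission, and Pole, Exo1, Blm and Pclaf act in DNA synthesis and repair. The 5 most opposed were Phf1 (−0.88), Ncoa3 (−0.85), Syf2, Ergic3 and Ypel3 (−0.84). Without both far tumours these 15 values ran from 0.89 to 0.96 and from −0.85 to −0.73.

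Related genes of the cell cycle did not pass the test against the controls either. Against the controls, 0 of 25 other replication genes, 0 of 30 other mitosis genes, 0 of 17 G1 cyclins, kinases and inhibitors and 0 of 12 E2F, DREAM and MuvB factors passed limma's test in any of the 3 knockout groups. At an unadjusted p of 0.05 the labelled double knockouts held 1, 1, 5 and 2 of them, against 16.9% of all genes. The Itgb1 knockouts held 1, 0, 5 and 0, against 4.86%, and the Itgb3 knockouts 0, 0, 2 and 2, against 6.14%. The G1 kinase gene Cdk6 had a p under 0.05 in all 3 of these comparisons, which share the controls, with differences of −0.81, −0.84 and −0.80 and limma adjusted p of 0.0578, 0.982 and 0.723. The other G1 genes under 0.05 were Cdkn2b (0.52), Ccnd2 (0.75), Ccne1 (0.35) and Cdkn2c (0.53) in the labelled double knockouts, Ccne1 (0.42), Cdkn2d (0.43), Cdkn2c (0.59) and Rbl2 (0.33) in the Itgb1 knockouts and Ccnd3 (−0.42) in the Itgb3 knockouts, and these genes were picked by p after their values were seen. In the labelled double knockouts against the controls, Cks2, a small Cdk subunit, lay at −0.67 (SE 0.303) and Smc4, a condensin subunit, at −0.37 (SE 0.199). In that comparison the replication kinase gene Cdc7 lay at −0.47 (SE 0.209) and the primase gene Prim1 at −0.42 (SE 0.224). Limma adjusted p of these 4 were 0.269, 0.360, 0.263 and 0.354.

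Between the labelled double knockouts and the Itgb3 knockouts 1 of the 17 G1 genes and 1 of the 12 E2F, DREAM and MuvB factors passed, where 2.87% of all genes did. Ccnd2, which encodes the G1 cyclin D2, had log2 levels of 5.62, 6.61 and 7.26 in the labelled double knockouts (lowest, median, highest) and 5.43, 5.20, 5.80 and 5.41 in the Itgb3 knockouts. Only double knockout 5 lay within the range of the Itgb3 knockouts. Ccnd2 rose by 1.08 (SE 0.238, limma adjusted p = 0.0253), and lost the call without double knockout 1 or without Itgb3 knockout 1, 2 or 4 (adjusted p 0.0591 to 0.0769), or with only the groups compared in the fit (adjusted p = 0.0534). Lin52, a MuvB subunit, had 6.41, 6.72 and 6.79 in the labelled double knockouts and 6.14, 6.36, 6.36 and 5.87 in the Itgb3 knockouts, with no overlap. It rose by 0.48 (SE 0.124, limma adjusted p = 0.0451), a call kept in 8 of 19 fits that left out 1 tumour. The call was lost without any of the Itgb3 knockouts, without double knockout 1, 2, 3, 5 or 6 and without Itgb1 knockout 3 or 4 (adjusted p 0.0518 to 0.137), and with quantile normalization, no filter or only the groups compared (adjusted p 0.0567 to 0.0845). In the same comparison 3 of 10 macrophage genes rose, Adgre1 (0.98), Cd14 (1.19) and Csf1r (0.98), with limma adjusted p of 0.0163, 0.0182 and 0.0341, each lost on leaving out some single tumours (adjusted p 0.0503 to 0.114). The macrophage list lay above 0 for 10 of 10 genes, with a median of 0.63, and the fibroblast list for 10 of 10, with a median of 1.03 and 0 past the test. The part of these cells in the Ccnd2 and Lin52 differences was not tested. Against the controls neither Ccnd2 nor Lin52 passed, with differences of 0.75 for Ccnd2 and 0.17 for Lin52 in the labelled double knockouts.

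Within genotypes the related lists followed the members to unequal degrees. Over 19 tumours the median r with the members' mean was 0.84 for the 30 other mitosis genes, 0.76 for the 25 other replication genes, 0.52 for the 12 E2F, DREAM and MuvB factors and 0.26 for the 17 G1 genes. The genes named next were chosen after their values were seen. Among the regulators Mybl2, which encodes B-Myb, had the highest r (0.80) and E2f4, a DREAM repressor, the lowest (−0.36). Of the G1 genes Rbl1 (p107) had 0.76 and Ccne1 (cyclin E1) 0.75, both themselves E2F targets, while the inhibitor gene Cdkn1c had −0.57.

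**Figure D4:**
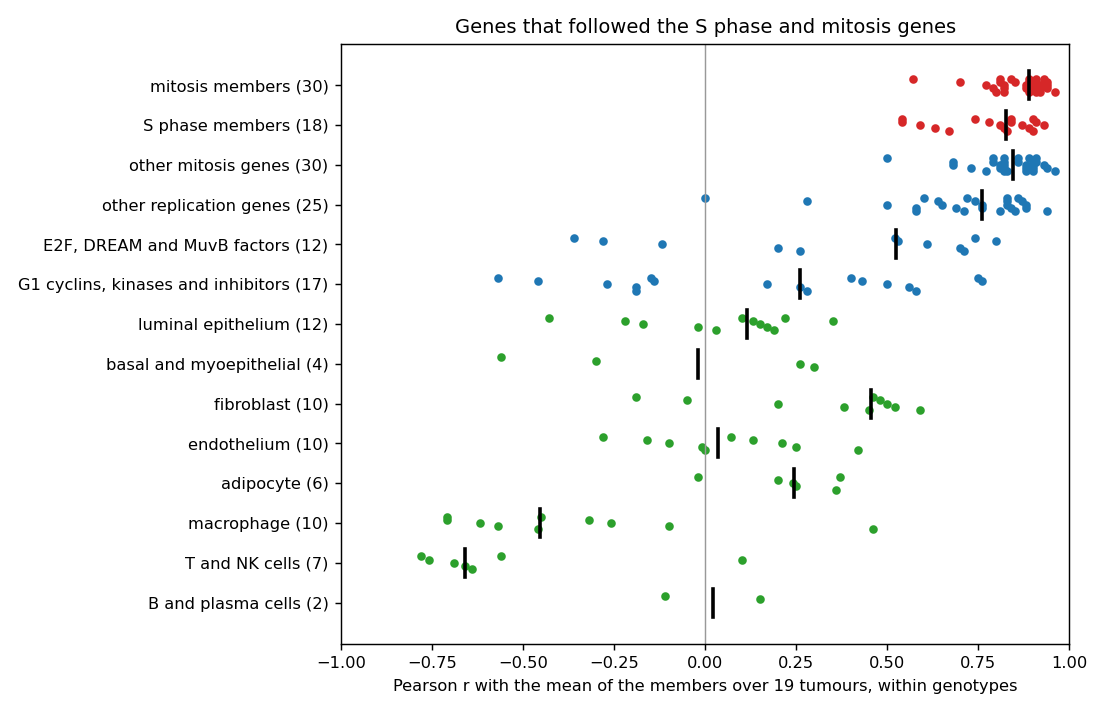
Pearson r with the mean of the members over 19 tumours after subtracting genotype means (x axis), 1 point per gene, for the members (red, each against the other members), related cell cycle lists (blue) and cell type markers (green), with list sizes in brackets and medians as black bars. Members lie between 0.54 and 0.96, other mitosis genes at a median of 0.84 and T and NK cell markers at a median of −0.66.

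Markers of T and NK cells and of macrophages ran against the members from tumour to tumour. Over all 19 tumours those of other cell types did not as lists. Of 7 measured T and NK cell genes 6 had an r below 0, with a median of −0.66, from −0.78 for Gzmb to 0.10 for Prf1. Of 10 macrophage genes 9 did, with a median of −0.45, from −0.71 for C1qa to 0.46 for Mrc1. Without double knockout 5 the medians were −0.61 and −0.50, and without Itgb3 knockout 2 as well −0.54 and −0.55. Double knockout 5, lowest in members, had the mean T and NK cell genes at 0.88 and macrophage genes at 0.32, and control 1, highest in members, had −0.67 and −0.50. By group the mean deviation of the T and NK cell list ran from −0.39 to 0.88 in the labelled double knockouts, −0.48 to 0.33 in Itgb1 knockouts, −0.37 to 0.47 in Itgb3 knockouts and −0.67 to 0.49 in controls. The macrophage list ran from −0.29 to 0.74 in the labelled double knockouts, −0.18 to 0.13 in Itgb1 knockouts, −0.47 to −0.07 in Itgb3 knockouts and −0.50 to 0.30 in controls. In the labelled double knockouts 1 of the 10 macrophage genes, Cd14, rose against the controls, by 1.59 (SE 0.229, limma adjusted p = 0.00514, and 0.0592 with only these groups in the fit), and 0 of the 7 T and NK cell genes passed. Cd3d and Cd2 were below the filter on all 19 arrays. Fibroblast genes had a median r of 0.46 (8 of 10 above 0), which became −0.04 without both far tumours, where the fibroblast list lay at −0.85 (double knockout 5) and −1.95 (Itgb3 knockout 2). The median r was 0.25 for adipocyte genes, 0.12 for luminal epithelial genes, 0.04 for endothelial genes, 0.02 for B and plasma cell genes and −0.02 for basal and myoepithelial genes, over 6, 12, 10, 2 and 4 genes. The endothelial median became −0.21 without double knockout 5, with 9 of 10 genes below 0. Without both far tumours it was −0.25, with 10 of 10 below 0. The adipocyte, luminal, B and plasma cell and basal medians were then 0.04, 0.08, −0.18 and −0.10. The part of the tissue mix in the members' levels was not tested.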

How the data were processed

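The authors deposited normalized log2 intensities, with 1 value for each probe set on each array. Per the submitters' processing notes they used Affymetrix Expression Console, without a version. How background was corrected and probes were summarised is not stated in the labels. The log2 values, from 0.542 to 13.7 on 19 arrays and 41345 probe sets, were used as deposited. Gene names came from the platform annotation (23521 probe sets with 1 symbol, 1814 with several, 16010 with none), of which 23328 were matched by Entrez identifier to the GRCm38.p6 gene table and 0 were renamed. Genes were kept where 1 of their probe sets reached 4.38 on at least 4 arrays.

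Differences were tested with limma 3.58.1 in R 4.3.3 (lmFit and eBayes, 19 arrays in 1 fit, 4 group means, no covariate, 15 residual degrees of freedom), two-sided, with p-values adjusted by Benjamini-Hochberg across the 14231 genes of each of 7 comparisons and a threshold of 0.05. The fit was tested on simulated data. The number of arrays limits the precision, and no sample was left out. For co-variation each gene's genotype mean was subtracted and Pearson r and Spearman rho were computed over the 19 tumours.

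The members and lists were chosen with earlier results of these data known. Levels are given for the 2 members with the highest mean in each role group. They are also given for the 3 with the smallest p in each comparison, except Kif2c, for which a difference is given. These levels are tumour by tumour, or the lowest, median and highest for the labelled double knockouts. Related genes are named where they passed, or else the 2 with the smallest p against control. Genes like the members are the 10 highest and 5 lowest in r, leaving out predicted genes, clones and small RNAs. Replicate numbers follow accession order and pair no samples. Alternatives were median centring, quantile normalization, other filters, the mean of probe sets, fits of only the groups compared, a trended robust prior, array weights and leaving out each tumour.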

Additional observations from a re-analysis of the deposited data

Results flagged for a closer look

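In 10 of 208 groups of values checked, 1 tumour stood apart from the rest of its genotype, judged by its gap to the nearest tumour as a share of the group's range. Chance gives about 1 in 20 such groups. Double knockout 5 was the low tumour in 6 of them, and these 6 are not independent, since its members were low together. The share was 0.659 for Cdca3, a trigger of mitotic entry (6.30 in double knockout 5 against 6.87 to 7.16 in the other 5), 0.674 for Ccna2 (8.49 against 9.29 to 9.69) and 0.653 for Plk1 (8.09 against 8.88 to 9.30). It was 0.633 for Cenpe (6.77 against 7.53 to 7.97), 0.657 for Kif2c (6.32 against 7.12 to 7.54) and 0.659 for Ect2 (8.89 against 9.68 to 10.08). Control 1 was high in Cdca3, with a share of 0.818 (7.50 against 6.76 to 6.89). Itgb1 knockout 3 was high in Aurka, with 0.884 (8.08 against 7.81 to 7.84). Itgb3 knockout 2 was low in Bub1b, a spindle checkpoint gene, with 0.884 (6.54 against 7.24 to 7.33). Itgb3 knockout 3 was high in Cdt1, which loads the replicative helicase, with 0.861 (7.18 against 6.72 to 6.79). The cause was not tested in any of them.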

How the results depend on the processing

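No paired analysis was possible because the labels give no replicate numbers and those used here follow accession order. Over 8 other settings and 19 fits that left out 1 tumour, the number of members past the test stayed at 0 in 187 of 188 values, the exception being 1 (Melk) between the labelled double and the Itgb3 knockouts with array weights. Member medians are close to 0 and changed sign in 8 of 188 values, although none moved by the SD between single tumours (0.341), a wide yardstick for a group median. Single members were followed only for the 21 tests with the smallest p, 3 a comparison, where 563 of 564 values kept their sign and their side of the threshold, the exception being Melk as above. Centring moved the median of all genes between the labelled double and the Itgb3 knockouts to 0.14 (members −0.01) and that of the interaction to 0.11 (members −0.15). Counts over all genes moved more. For the labelled double knockouts against control (55) they were 100 with centring, 31 with quantile normalization, 27 with no filter, 2 with only the groups compared, 26 with the trended prior and 31 with array weights. For the labelled double against the Itgb3 knockouts (408) they were 1220 with centring, 232 with quantile normalization and 1568 with array weights. Against the Itgb1 knockouts (3) they were 7 with only the groups compared and 33 with array weights. Array weights also gave 0 for the Itgb1 knockouts against control and 3 for the interaction. With each tumour left out in turn the counts ran from 14 to 125 (lowest without control 1 or double knockout 2, highest without double knockout 5) for the labelled double knockouts against control, 0 to 1 for the Itgb1 knockouts against control, 0 to 24 for the labelled double against the Itgb1 knockouts, 56 to 459 for the labelled double against the Itgb3 knockouts, 0 to 1 for the Itgb3 against the Itgb1 knockouts and 0 to 5 for the interaction. The cause of these shifts was not tested.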
